A study of Mus musculus with 12 samples.

Results

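The AP-1 and EGR immediate early genes examined here are *Fos*, *Fosb*, *Jun*, *Junb*, *Jund*, *Egr1*, *Egr2*, *Egr3*, *Atf3* and *Ier2*, picked by gene symbol from the count files of sorted mouse synovial macrophages. They are 10 of the 26699 genes in the files, and all 10 passed the filter on low counts that left 11927 genes for testing. Together they took between 0.275% and 0.72% of the counts of a library.

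Immediate early genes are transcribed within minutes of a stimulus, from existing signalling proteins and without new protein synthesis, and their messages decay quickly. FOS and JUN proteins pair through leucine zippers to form the AP-1 transcription factor. EGR proteins bind GC-rich sites through zinc fingers. In macrophages both families are switched on by growth factors, inflammatory signals, cAMP and cell stress, and they are also known to rise during warm enzymatic digestion of tissue.

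Synovium, the lining tissue of joints, was dissected whole from adult C57BL/6 mice (C57BL/6J background in the study's methods) and cultured for 4 h with CGRP at 100 nM, the calcitonin gene-related peptide released by sensory neurons, or under control conditions without it. The tissue was then digested with collagenase, and MHC class II-positive macrophages that lacked CD11c (IAIE cells) or carried it (CD11c cells) were sorted for bulk RNA sequencing. There were 3 libraries for each subset and treatment, in 4 groups and 12 libraries. The labels do not say which libraries share an animal or explant, so p-values measure the spread between these libraries, which may in part be technical. All 12 libraries came from digested tissue, so RNA made in the joint, during the 4 h of culture and during digestion cannot be told apart, and no undigested sample was analysed here.

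Library totals ranged from 2127191 to 5649698 counts, and 3 counts, used as a detection floor, were worth 0.534 to 1.34 CPM (the counts divided by the library size, which was scaled by the TMM method). Replicates of a group had a Spearman's rho across genes of 0.934 to 0.968. *Itgax*, which encodes CD11c, was higher in CD11c than in IAIE control libraries by 5.33 ± 0.40 (SE) on the log2 scale, and the MHC class II genes *H2-Ab1*, *H2-Aa*, *H2-Eb1* and *Cd74* by between 1.24 and 1.44. The summed level of 11 macrophage markers lay between 4720 and 9027 CPM in every library, and none of the 11 was at 0 in all libraries of a group. In CD11c control libraries *Cd14* alone was at 2890 ± 331 CPM (SD, n = 3), and 9 of the 11 were lower than in IAIE control libraries, beside 10.9% of all genes. Markers of other cells were present at lower and uneven levels: 8 fibroblast markers summed to 1383 CPM in IAIE control replicate 2 and 1571 CPM in IAIE CGRP replicate 1, and to between 24.5 and 388 CPM in the other libraries. The sums of 8 dendritic cell markers were 634 to 696 CPM in CD11c control and 671 to 775 CPM in CD11c CGRP libraries. In IAIE libraries they were 109 to 173 CPM in control and 91.3 to 117 CPM after CGRP. A bulk library cannot separate less RNA per cell from fewer cells that make it.

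Promoter sequence of 7 of the 10 genes was matched by symbol in RefSeq (GRCm38.p6), as the 250 bases before an annotated start. No window of *Egr1*, *Egr3* or *Ier2* was searched, so their promoters are not described here. Shown here, 5′ to 3′ on the gene's strand, are *Fos* and *Fosb*, whose transcripts were lower after CGRP in both subsets, *Egr2*, lower in IAIE cells, and *Jun*, for which no difference was detected. Capitals mark the core of the cAMP response element (TGACG, or CGTCA on the other strand), the EGR site GCGGGGGCG in *Fosb*, the TGACATCA element in *Jun* and the CArG box in *Egr2*, to which serum response factor binds.
Fos, chr12:85473640-85473889, plus strand: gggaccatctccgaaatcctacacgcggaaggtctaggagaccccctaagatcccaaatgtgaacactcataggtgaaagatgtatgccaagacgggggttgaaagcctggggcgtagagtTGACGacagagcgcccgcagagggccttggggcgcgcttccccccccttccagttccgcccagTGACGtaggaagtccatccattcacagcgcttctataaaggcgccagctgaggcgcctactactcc
Fosb, chr7:19310046-19310295, minus strand: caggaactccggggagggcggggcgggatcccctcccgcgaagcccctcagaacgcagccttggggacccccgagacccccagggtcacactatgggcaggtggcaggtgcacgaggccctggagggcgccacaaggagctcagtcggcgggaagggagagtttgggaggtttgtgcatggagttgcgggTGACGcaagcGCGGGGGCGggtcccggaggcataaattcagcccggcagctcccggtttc
Jun, chr4:95052223-95052472, minus strand: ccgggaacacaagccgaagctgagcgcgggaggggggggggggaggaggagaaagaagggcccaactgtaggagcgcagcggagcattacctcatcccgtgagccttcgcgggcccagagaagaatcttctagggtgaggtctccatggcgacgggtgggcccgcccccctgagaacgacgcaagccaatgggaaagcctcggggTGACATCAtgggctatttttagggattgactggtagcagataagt
Egr2, chr10:67537619-67537868, plus strand, at an annotated start of several: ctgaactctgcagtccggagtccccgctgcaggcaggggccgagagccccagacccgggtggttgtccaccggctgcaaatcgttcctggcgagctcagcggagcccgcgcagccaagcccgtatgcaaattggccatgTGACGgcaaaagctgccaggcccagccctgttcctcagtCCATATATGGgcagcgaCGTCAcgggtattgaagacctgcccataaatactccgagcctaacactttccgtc

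The TGACG core was found in 5 of the 7 genes (*Fos*, *Fosb*, *Junb*, *Egr2* and *Atf3*). It was in 17.8% of all 32851 windows of the same length and, counted as for the 7 genes in any window of a gene, in 19.8% of 27025 genes. In *Fos* it began 129 and 66 bases before the start, in *Fosb* 60 bases before it. The full palindrome TGACGTCA, found in 1.55% of all windows, and the AP-1 site TGACTCA or TGAGTCA, found in 4.46%, were in none of the 7. The EGR site was searched as GCGGGGGCG or GCGTGGGCG on either strand. Among the 7 genes it was found in *Fosb* only, beginning 50 bases before the start (3.06% of all windows). TGACATCA stood 45 bases before the start of *Jun* (2.93% of all windows). Among the 7 genes the CArG box was found in *Egr2* only (1.47% of all windows and 1.62% of genes in any window). The lower-case run tataaa of *Fos*, 33 bases before the start, is a TATA box, found in 7.59% of all windows. A match describes these letters only, and binding was not measured.

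The transcripts were compared with one another per kilobase of exon, since longer genes yield more reads. The length was that of all annotated exons of a gene merged, 6243 bases for *Fosb* and 2352 for *Fos*. The order, and every share given per kilobase, depends on this choice. In IAIE control libraries the mean level was highest for *Atf3*, at 820.4 ± 225 CPM per kb (SD, n = 3), which encodes a stress-induced factor that pairs with JUN proteins and can repress inflammatory genes. *Jun* followed at 450.1 ± 77.7, *Fos* at 356 ± 25.3 and *Junb* at 278 ± 35.3 CPM per kb, and the libraries of these 4 genes did not overlap from one gene to the next. *Egr1* (115 ± 23.0), *Jund* (106 ± 24.6) and *Fosb* (87.5 ± 0.646) formed the middle of the order. The libraries of *Egr1* and *Jund* overlapped, as did those of *Jund* and *Fosb*, so these neighbours were not separated by their spread. *Ier2* (59.5 ± 10.3), *Egr2* (22.2 ± 2.48) and *Egr3* (3.97 ± 1.34) were lowest.

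In CD11c control libraries *Atf3* again led, at 479 ± 64.6 CPM per kb, followed by *Junb* at 273 ± 43.9, *Fos* at 219 ± 22.1 and *Jun* at 176 ± 22.7. *Junb* and *Fos* overlapped, and so did *Fos* and *Jun*. By mean level *Jun* therefore had rank 2 in IAIE control and rank 4 in CD11c control libraries, the latter not separated from *Fos*. After CGRP it had rank 2 in IAIE and rank 3 in CD11c cells. *Egr2* and *Egr3* stayed at the bottom in all 4 groups, and *Egr3* was under 1 CPM per kb on average in both CGRP groups, at 0.761 ± 0.153 in IAIE and 0.966 ± 0.694 in CD11c cells.

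**Figure D1:**
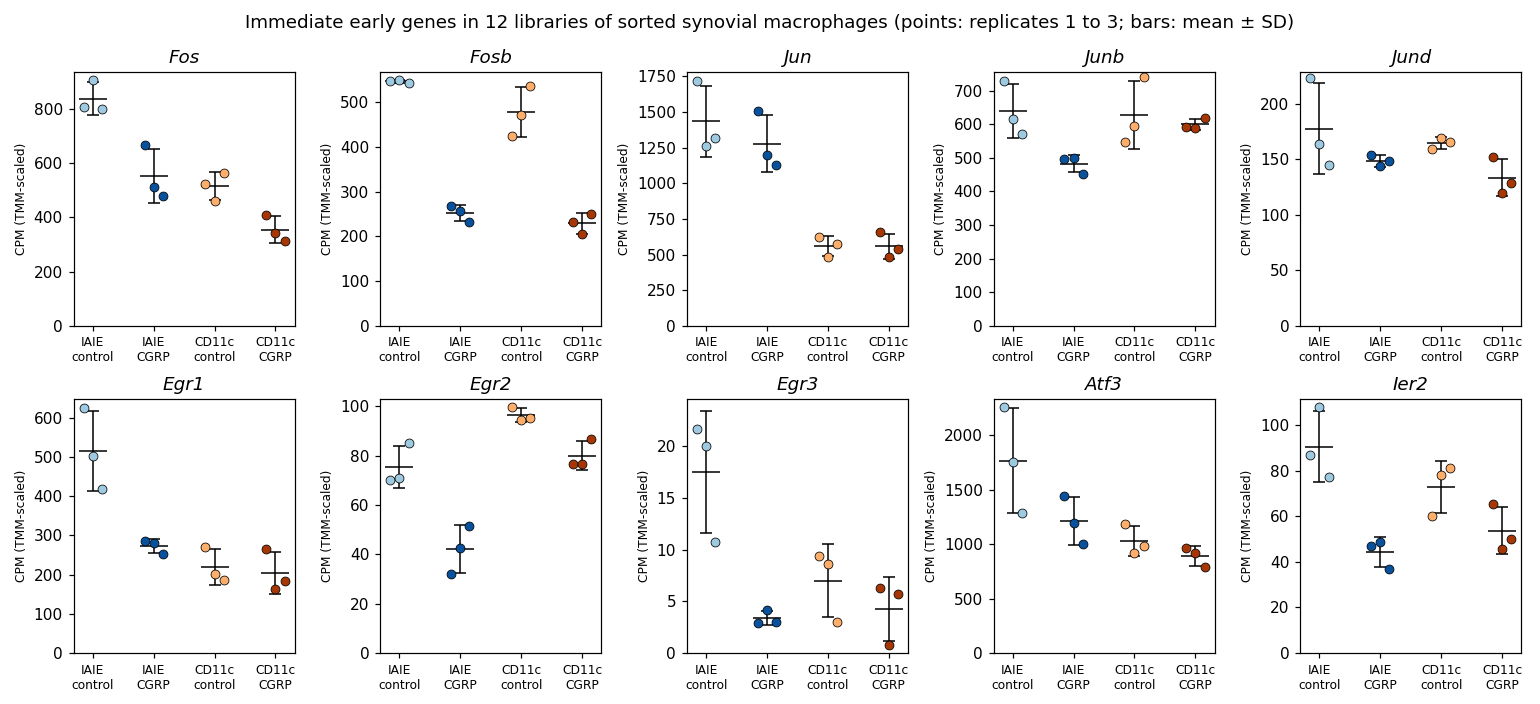
Level of each of the 10 genes (vertical axes, TMM-scaled CPM from 0) in the 12 libraries, by group; points are replicates 1 to 3 from left to right and bars are the mean ± SD of 3 libraries. *Fosb* falls from between 425 and 550.2 CPM in the 6 control libraries to between 204 and 268 CPM in the 6 CGRP libraries, and *Jun* separates the subsets instead.

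The question of the CGRP comparison was how the neuropeptide changes each macrophage subset. In IAIE cells 6 of the 10 genes were lower after CGRP at an adjusted p under 0.05 in edgeR's quasi-likelihood test (*Fos*, *Fosb*, *Egr1*, *Egr2*, *Egr3* and *Ier2*), and none was higher. Of all tested genes, 3.89% were lower and 5.32% higher. In CD11c cells *Fos* and *Fosb* were lower and none was higher, against 4.59% of all genes lower and 6.29% higher. All 10 estimates were negative in both subsets, with a median log2 fold change of -0.72 in IAIE and -0.28 in CD11c cells, beside medians over all genes of -0.02 and 0.0016.

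*Fosb* encodes an AP-1 subunit that, like FOS, pairs with JUN proteins to bind DNA. Its level was 546, 550.2 and 542 CPM in IAIE control replicates 1 to 3 and 268, 256 and 232 CPM in the IAIE CGRP libraries. In CD11c cells it was 425, 471 and 536 CPM in control and 231, 204 and 251 CPM in CGRP libraries. Every CGRP library of either subset was below every control library, a gap seen in 12% (IAIE) and 13.8% (CD11c) of all genes in that direction. *Fosb* was 2.17-fold lower in IAIE cells (log2 -1.11 ± 0.12, adjusted p = 1.2e-05) and 2.09-fold lower in CD11c cells (log2 -1.06 ± 0.12, adjusted p = 1.16e-05).

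*Fos*, the founding member of the family, was measured at 806, 907 and 801 CPM in IAIE control and 667, 511 and 480.1 CPM in IAIE CGRP libraries. In CD11c cells it was at 523, 459 and 562 CPM in control and 409, 343 and 313 CPM in CGRP libraries. The groups did not overlap in either subset, although IAIE CGRP replicate 1 stood nearer to the controls than the other replicates did. *Fos* was 1.52-fold lower in IAIE cells (log2 -0.60 ± 0.14, adjusted p = 0.00912) and 1.45-fold lower in CD11c cells (log2 -0.53 ± 0.14, adjusted p = 0.0178). Both calls depended on single libraries. For IAIE cells the adjusted p rose above 0.05 when IAIE control replicate 2 (0.0585), IAIE CGRP replicate 2 (0.0583) or IAIE CGRP replicate 3 (0.0579) was left out. In CD11c cells the same happened without control replicate 1 (0.0515), control replicate 3 (0.0756), CGRP replicate 2 (0.0621) or CGRP replicate 3 (0.081). Neither call was lost under the other scalings, filters, tools and blocks, or with the compared libraries alone.

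The JUN genes, whose proteins can form AP-1 with each other or with FOS proteins, did not pass the threshold in either subset. *Jun* was at 1720, 1265 and 1321 CPM in IAIE control and at 1505, 1201 and 1129 CPM in IAIE CGRP libraries, overlapping ranges with a log2 fold change of -0.17 (95% confidence interval -0.49 to 0.15, adjusted p = 0.589). In CD11c cells its log2 fold change was -0.01 (-0.33 to 0.32, adjusted p = 0.991). A fall of *Jun* as large as that of *Fosb* lay outside both intervals.

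*Junb*, which encodes a JUN protein with weaker transactivation than JUN, was at 729, 616 and 572 CPM in IAIE control and at 495, 499 and 453 CPM in IAIE CGRP libraries. The groups did not overlap, yet the difference of -0.41 ± 0.13 on the log2 scale missed the threshold (adjusted p = 0.056). It passed with 4 of 21 other settings, among them DESeq2 (adjusted p = 0.0142). In CD11c cells the log2 fold change of *Junb* was -0.07 (-0.34 to 0.20, adjusted p = 0.83).

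*Jund*, known as the least inducible JUN gene, changed by -0.26 ± 0.15 in IAIE and -0.30 ± 0.15 in CD11c cells on the log2 scale (adjusted p = 0.35 and 0.256). Its exon overlaps the antisense gene *Gm11175* over 52.6% of its length, and *Junb* overlaps *Prdx2* over 7.52% and *Jun* overlaps *Junos* over 7.28%. The strand setting of the counting is not stated, so reads of these genes and of their antisense partners cannot be told apart in those stretches.

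All 3 EGR genes were lower after CGRP in IAIE cells. *Egr1*, a zinc finger factor induced by ERK signalling through serum response factor, was at 624, 503 and 419 CPM in IAIE control and at 285, 281 and 254 CPM in IAIE CGRP libraries. In CD11c cells it was at 270.5, 200.4 and 187 CPM in control and at 266, 164 and 184 CPM in CGRP libraries. The IAIE groups were far apart and the CD11c groups overlapped almost entirely. *Egr1* was 1.89-fold lower in IAIE cells (log2 -0.92 ± 0.18, adjusted p = 0.0025). In CD11c cells the log2 fold change was -0.10 (95% confidence interval -0.48 to 0.29, adjusted p = 0.831).

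*Egr2*, a related factor known for Schwann cell myelination and for its induction in macrophages, was at 70.1, 70.8 and 85.1 CPM in IAIE control and at 32.0, 42.5 and 51.7 CPM in IAIE CGRP libraries. In CD11c cells the values were 99.5, 94.5 and 95.3 CPM in control and 76.7, 76.5 and 86.8 CPM in CGRP libraries. The groups did not overlap in either subset. The fall was 1.78-fold in IAIE cells (log2 -0.83 ± 0.17, adjusted p = 0.00336), and the CD11c difference of -0.27 (95% confidence interval -0.61 to 0.08) missed the threshold (adjusted p = 0.377).

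*Egr3*, a close relative of EGR1 that binds similar sites, was the scarcest of the 10, with 70, 70 and 24 counts in IAIE control and 11, 17 and 16 counts in IAIE CGRP libraries. These counts correspond to 21.7, 20.1 and 10.7 CPM and to 2.91, 4.13 and 3.02 CPM. The groups were separated, and *Egr3* was 5.23-fold lower (log2 -2.39 ± 0.57, adjusted p = 0.0107), with a 95% confidence interval from -3.59 to -1.19. In CD11c cells control libraries held 23, 37 and 14 counts and CGRP libraries 33, 3 and 32 counts, so that CGRP replicate 2 lay at the floor. The difference there missed the threshold (log2 -0.66, 95% confidence interval -1.84 to 0.52, adjusted p = 0.565).

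*Ier2*, a small nuclear protein gene that responds to growth factors, was at 86.9, 108 and 77.0 CPM in IAIE control and at 47.1, 48.8 and 37.0 CPM in IAIE CGRP libraries. The groups did not overlap and the fall was 2.05-fold (log2 -1.04 ± 0.19, adjusted p = 0.00124). In CD11c cells the 3 control libraries (60.0, 77.9 and 81.1 CPM) overlapped with the CGRP libraries (65.4, 45.8 and 49.8 CPM), and the difference of -0.45 ± 0.19 did not pass (adjusted p = 0.149).

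*Atf3* was the most variable of the abundant genes among IAIE controls, at 2258, 1754 and 1290 CPM, and was at 1442, 1198 and 1003 CPM in IAIE CGRP libraries. The ranges overlapped because control replicate 3 lay under CGRP replicate 1, and the log2 fold change of -0.54 ± 0.17 missed the threshold (adjusted p = 0.0568). It passed with 8 of 21 other settings, including DESeq2 (adjusted p = 0.0204) and leaving out IAIE control replicate 3 (0.0101) or IAIE CGRP replicate 1 (0.0354). In CD11c cells the log2 fold change was -0.21 (95% confidence interval -0.57 to 0.15, adjusted p = 0.551).

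**Figure D2:**
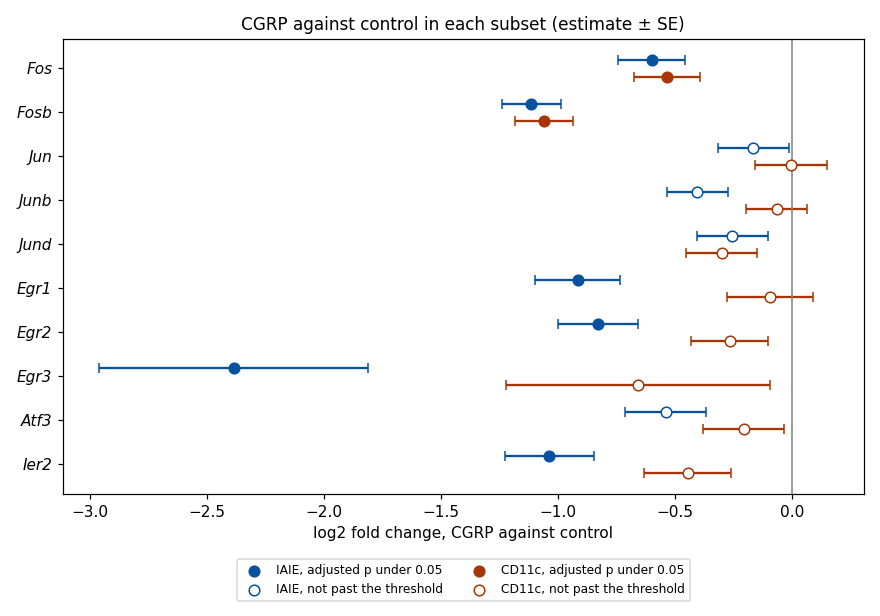
Log2 fold change of each gene after CGRP (horizontal axis, CGRP against control; points are edgeR estimates, bars ± SE) in IAIE (blue) and CD11c cells (brown), filled where the adjusted p was under 0.05. *Fosb* and *Fos* lie together in both subsets, whereas the *Egr1* points lie at -0.92 and -0.10.

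Because the call differed between the subsets for 4 genes, the difference itself was tested as the subset-by-CGRP interaction, the effect in CD11c cells minus that in IAIE cells. None of the 10 genes passed in edgeR, DESeq2 or limma-voom, beside 0.151% of all genes in edgeR. At an unadjusted p under 0.05, 4 of the 10 (*Egr1*, *Egr2*, *Egr3* and *Ier2*) and 8.8% of all genes were counted. *Egr1* had the smallest p, with an interaction of 0.82 ± 0.26 on the log2 scale (95% confidence interval 0.28 to 1.36, unadjusted p = 0.00478, adjusted p = 0.285). It passed only when every gene with at least 1 count was kept (adjusted p = 0.0457). For *Fos* and *Fosb* the interaction was 0.07 (-0.35 to 0.48) and 0.05 (-0.31 to 0.42). A difference between the subsets in the CGRP response of any of the 10 genes was thus not shown by this test.

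Markers of other cell types differed between treatments in the same libraries. Of 6 B cell markers 1 was lower in IAIE and 2 in CD11c cells, with none higher. The summed level of 6 B cell markers was between 166 and 277 CPM in IAIE control and between 76.0 and 122 CPM in IAIE CGRP libraries, and between 35.5 and 54.7 CPM in CD11c control and 6.76 and 16.1 CPM in CD11c CGRP libraries, and no B cell marker was at 0 in all libraries of a group. Its part in the lower levels of the immediate early genes was not tested. The MHC class II genes that defined the sort were lower too, *H2-Ab1* by -0.74 ± 0.11 in IAIE cells and -0.66 ± 0.11 in CD11c cells on the log2 scale (adjusted p = 0.000316 and 0.000574). Fibroblast markers were lower after CGRP in IAIE cells in 3 of the 6 tested, the collagen genes *Col1a1* (8.26-fold, adjusted p = 0.0147), *Col3a1* (5.73-fold, adjusted p = 0.0217) and *Col1a2* (5.16-fold, adjusted p = 0.0165), and none was higher. In IAIE control libraries these collagen genes were at 266 ± 351, 163 ± 172 and 121 ± 141 CPM, each with an SD above the mean. The median log2 fold change of the 6 was -2.22. Their sums over 8 markers overlapped between treatments (169 to 1383 CPM in control, 52.2 to 1571 CPM after CGRP), with *Prg4*, the lubricin gene, at 1433 CPM in IAIE CGRP replicate 1. The part of these cells in the IAIE differences was not tested. Without the pair of libraries highest in those markers, an alternative chosen after seeing the data, 5 of the 10 genes remained lower in IAIE cells. *Egr3* was lost (log2 -2.17, adjusted p = 0.103). Of all genes, 307 were lower in that fit, against 464 in the main fit.

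In CD11c cells, 5 of 6 mural and muscle markers and 2 of 6 fibroblast markers were higher after CGRP. The mural and muscle sums went from between 29.7 and 31.5 CPM to between 54.7 and 357 CPM, with *Tagln* and *Des* at 0 in all CD11c control libraries. Of 6 dendritic cell markers 3 were lower and 1 higher. *Cd209a*, a lectin gene of monocyte-derived dendritic cells, went from 297 ± 7.06 to 79.3 ± 9.84 CPM (3.76-fold lower, adjusted p = 2.26e-06), *Dpp4* and *Flt3* were 4.20-fold and 4.07-fold lower (adjusted p = 0.00322 and 0.0169), and the chemokine receptor gene *Ccr7* was 2.39-fold higher (adjusted p = 5.32e-05). The dendritic sums were 634 to 696 CPM in control and 671 to 775 CPM in CGRP libraries. *Itgax*, the gene behind the sort, was 2.04-fold lower in CD11c cells (237 ± 29.0 to 115 ± 7.33 CPM, adjusted p = 0.0288). In IAIE cells 1 dendritic marker, *Flt3*, was lower (4.59-fold, adjusted p = 0.0241). The part of these cells in the CGRP differences of the immediate early genes was not tested.

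Heat shock genes, which respond to cell stress, had their highest sum in replicate 1 of all 4 groups. The 13 heat shock genes summed to 37470 CPM in IAIE control replicate 1 and 36802 CPM in IAIE CGRP replicate 1, and to between 21633 and 26822 CPM in the other IAIE libraries. The CD11c libraries reached 18717 CPM in control replicate 1 and 19926 CPM in CGRP replicate 1, with the others between 15192 and 16195 CPM. IAIE control replicate 1 was also the highest of all 12 libraries for *Jun*, *Jund*, *Egr1*, *Egr3* and *Atf3*. Between treatments 1 of the 13 heat shock genes (*Hspb1*, a small chaperone) was higher and none lower in either subset, and their median log2 fold change was -0.0022 in IAIE and -0.05 in CD11c cells. Without replicate 1 of both IAIE groups, also chosen after seeing the data, 5 of the 10 genes remained lower in IAIE cells. *Egr3* was again the gene lost (log2 -2.11, adjusted p = 0.118). Of all genes, 273 were lower in that fit, against 464 in the main fit.

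The subsets also differed from each other before CGRP was considered. Among control libraries 4 of the 10 genes were lower in CD11c than in IAIE cells (*Fos*, *Jun*, *Egr1* and *Atf3*) and none was higher, beside 10.9% of all genes lower and 10.2% higher. After CGRP *Fos* and *Jun* were lower in CD11c cells and *Egr2* was higher, beside 8.51% of all genes lower and 8.36% higher. These subset comparisons share their libraries with the CGRP comparisons and are not separate evidence of them.

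*Jun* showed the largest of these differences. It lay between 482 and 624 CPM in CD11c control and between 1265 and 1720 CPM in IAIE control libraries, and was 2.56-fold lower in CD11c cells (log2 -1.36 ± 0.16, adjusted p = 4.33e-06). After CGRP it lay between 481 and 656 CPM in CD11c and between 1129 and 1505 CPM in IAIE libraries, 2.29-fold lower (log2 -1.19 ± 0.16, adjusted p = 1.62e-05). No library of either subset reached into the range of the other, a gap seen downward in 17.5% of all genes without CGRP and in 17% after it. *Fos* was 1.63-fold lower in CD11c control libraries (log2 -0.70 ± 0.14, adjusted p = 0.00128) and 1.56-fold lower after CGRP (log2 -0.64 ± 0.14, adjusted p = 0.00322).

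*Egr1* was 2.36-fold lower in CD11c control libraries (log2 -1.24 ± 0.18, adjusted p = 7.12e-05). After CGRP the IAIE and CD11c libraries overlapped and the log2 difference was -0.42 ± 0.18 (adjusted p = 0.138). It passed with 4 of 22 other settings, among them the replicate number as a block (adjusted p = 0.0202). *Egr2* went the other way: it was higher in CD11c cells by 0.36 ± 0.17 in control libraries, which missed the threshold (adjusted p = 0.146), and by 0.92 ± 0.17 after CGRP (1.89-fold, adjusted p = 0.000589). The lowest CD11c CGRP library (76.5 CPM) was above the highest IAIE CGRP library (51.7 CPM). *Atf3* was 1.71-fold lower in CD11c control libraries (log2 -0.78 ± 0.17, adjusted p = 0.0031), and after CGRP the difference of -0.44 ± 0.17 missed the threshold (adjusted p = 0.0911). The *Atf3* difference after CGRP passed with 7 of 22 other settings, the replicate block included (adjusted p = 0.0139). *Fosb*, *Junb*, *Jund*, *Egr3* and *Ier2* passed in neither comparison.

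**Figure D3:**
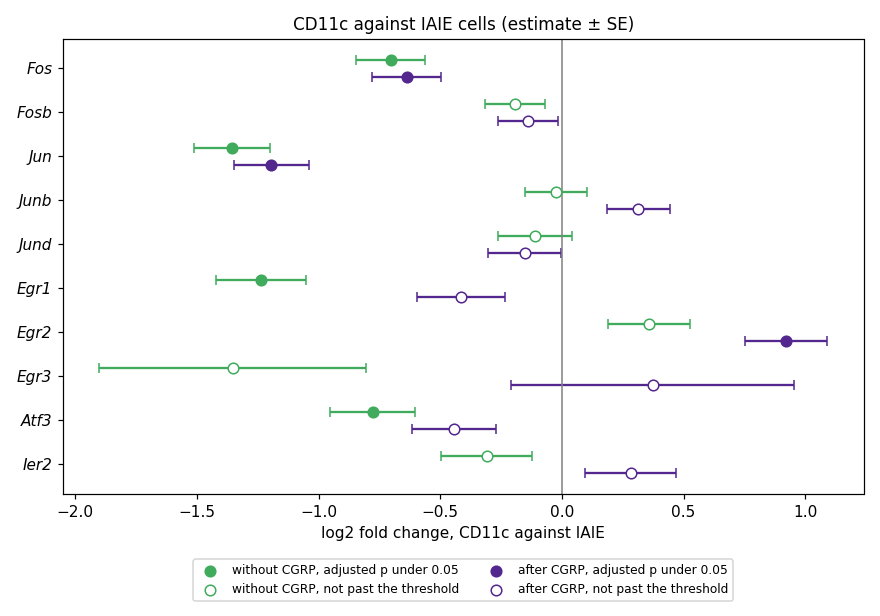
Log2 fold change of CD11c against IAIE cells for each gene (horizontal axis; points are edgeR estimates, bars ± SE) without CGRP (green) and after CGRP (purple), filled where the adjusted p was under 0.05. *Jun* is lowest in both, at -1.36 and -1.19, and *Egr2* is the only gene past the threshold to the right of 0.

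Heat shock and macrophage genes differed between the subsets in the same direction. Of the 13 heat shock genes 8 were lower in CD11c than in IAIE control libraries and 5 after CGRP, with none higher, and their sum was between 15192 and 18717 CPM in CD11c control libraries against 21633 to 37470 CPM in IAIE control libraries. Of the 11 macrophage markers 9 were lower in CD11c control libraries. Dendritic cell markers went the other way: 4 of 6 were higher in CD11c control libraries and none lower, among them *Zbtb46* (6.55-fold, adjusted p = 7.75e-07) and *Dpp4* (9.13-fold, adjusted p = 0.000101), with sums of 634 to 696 CPM against 109 to 173 CPM in IAIE control libraries. Of 6 B cell markers and of 6 fibroblast markers, 5 each were lower in CD11c control libraries. After CGRP 3 dendritic markers and 1 fibroblast marker were higher and all 6 B cell markers lower in CD11c cells. The part of any of these in the subset difference of the immediate early genes was not tested. Leaving out replicate 1 of both IAIE groups kept 4 of the immediate early genes lower in the control comparison. In that fit 1033 of all genes were lower, against 1306 in the main fit.

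Ratios within a library do not depend on the scaling between libraries. Per kilobase, *Fos* and *Fosb* together made up 35.0 ± 4.17% (SD, n = 3) of the FOS and JUN transcripts measured here in IAIE control libraries and 28.1 ± 1.18% after CGRP, and 35.0 ± 0.414% and 26.6 ± 1.29% in CD11c cells. Each CGRP library had a smaller FOS share (25.2% to 29.5%) than each control library (30.3% to 38.3%). The share of *Jun* among the 3 JUN transcripts was 53.9 ± 1.69% in IAIE control and 32.2 ± 4.16% in CD11c control libraries, and 57.1 ± 2.98% and 33.8 ± 2.94% after CGRP. These shares are descriptions and were not tested.

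The ratio of *Egr2* to *Egr1* counts set the subsets apart in the same way with and without CGRP. It was 0.112, 0.141 and 0.203 in IAIE control and 0.113, 0.151 and 0.204 in IAIE CGRP libraries. In CD11c cells it was 0.368, 0.471 and 0.509 in control and 0.289, 0.467 and 0.471 in CGRP libraries. Every CD11c library was above every IAIE library, and within a subset the treatments overlapped. The counts of *Fosb* per count of *Fos*, by contrast, went from 0.653 ± 0.0405 to 0.463 ± 0.0527 in IAIE and from 0.931 ± 0.108 to 0.654 ± 0.128 in CD11c cells.

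Other genes of the pathway were taken from lists by function. Among 13 further AP-1 subunits and MAF partners, 3 were lower and none higher after CGRP in IAIE cells, and 4 were lower and 1 higher in CD11c cells, with medians of -0.15 and -0.32 on the log2 scale. *Batf*, an AP-1 factor that lacks a transactivation domain, was 2.80-fold lower in IAIE (40.0 ± 10.1 to 14.5 ± 3.91 CPM, adjusted p = 0.0033) and 2.69-fold lower in CD11c cells (51.3 ± 22.9 to 18.8 ± 1.56 CPM, adjusted p = 0.00289). *Maff*, a small MAF protein, fell by 0.58 ± 0.14 in IAIE and by 0.53 ± 0.14 in CD11c cells on the log2 scale (adjusted p = 0.0119 and 0.0191). *Jdp2*, a JUN dimerisation partner that represses AP-1 targets, was lower in IAIE cells (-0.67 ± 0.19, adjusted p = 0.0314). In CD11c cells *Mafg* was lower (-0.45 ± 0.12, adjusted p = 0.0178) and *Maf*, a macrophage factor, was 2.01-fold higher (adjusted p = 0.0281).

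Of 28 other immediate early genes tested, 6 were lower and 2 higher after CGRP in IAIE cells, and 6 were lower and 3 higher in CD11c cells. *Klf2*, a Krüppel-like factor that restrains inflammatory genes in macrophages, was 1.78-fold lower in IAIE (149 ± 3.28 to 84.2 ± 6.12 CPM, adjusted p = 0.000413) and 2.45-fold lower in CD11c cells (151 ± 11.4 to 61.9 ± 5.25 CPM, adjusted p = 4.3e-06). *Nr4a2*, an orphan nuclear receptor, was 2.09-fold lower in IAIE and 1.99-fold lower in CD11c cells (adjusted p = 0.00185 and 0.00129). *Btg2*, an antiproliferative gene, and *Klf10*, a gene induced by TGF-beta, were 1.81-fold and 1.69-fold lower in IAIE cells (adjusted p = 0.000852 and 0.00701). The list did not move one way: *Ier3*, a stress-response gene, was 1.90-fold higher in CD11c cells (152 ± 3.63 to 288 ± 5.25 CPM, adjusted p = 2.9e-05). *Ccn2*, a matricellular gene typical of stromal cells, passed the threshold upward in CD11c cells, where the control mean of 0.207 CPM lay under the floor and the fibroblast marker sums were also higher (74.9 to 388 CPM against 24.5 to 35.6 CPM in control).

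Of 17 feedback inhibitors, 1 was lower in each subset and none was higher (list medians 0.08, IAIE, and 0.15, CD11c): *Dusp2* in IAIE cells (-0.97 ± 0.26, adjusted p = 0.0245) and *Dusp1* in CD11c cells (-0.46 ± 0.12, adjusted p = 0.0154), both of which encode phosphatases that switch off MAP kinases. Of 23 upstream kinases and factors, 1 was higher and 3 lower in IAIE cells, and 2 were higher and 3 lower in CD11c cells, with medians of 0.08 and -0.01. Of all tested genes, 5.32% were higher and 3.89% lower in IAIE cells and 6.29% and 4.59% in CD11c cells. *Map2k1*, which encodes the ERK kinase MEK1, was 2.14-fold higher in IAIE (139.6 ± 8.84 to 299 ± 12.8 CPM, adjusted p = 1.37e-05) and 1.58-fold higher in CD11c cells (adjusted p = 0.00124). *Mrtfa*, a coactivator of serum response factor, was 1.72-fold lower in IAIE and 1.74-fold lower in CD11c cells (adjusted p = 0.0245 and 0.00983).

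Of 29 known targets of AP-1 and EGR factors, 8 were higher and 3 lower after CGRP in IAIE cells and 10 were higher and 3 lower in CD11c cells, with medians of 0.29 and 0.24, beside the same shares of all genes. *Mmp12*, the macrophage elastase, was 5.93-fold higher in IAIE (16.0 ± 6.67 to 92.1 ± 8.21 CPM, adjusted p = 1.21e-06) and 5.94-fold higher in CD11c cells (113 ± 29.0 to 669.7 ± 39.2 CPM, adjusted p = 2.04e-07). *Vegfa*, an angiogenic growth factor, was 3.04-fold higher in IAIE cells (adjusted p = 1.03e-06), and *Ptgs2*, which encodes the prostaglandin synthase COX-2, was 2.42-fold higher (adjusted p = 0.000865). *Mmp13*, a collagenase, and *F3*, which encodes tissue factor, were 5.35-fold and 6.25-fold higher in CD11c cells (adjusted p = 6.48e-06 and 5.19e-05). The lower targets, named after their values were seen, were *Icam1*, an adhesion molecule gene (1.70-fold, adjusted p = 0.0107), *Ccl2*, a monocyte chemokine gene (1.73-fold, adjusted p = 0.0125), and *Bcl2l11*, which encodes the pro-apoptotic BIM (1.38-fold, adjusted p = 0.0252), in IAIE cells. In CD11c cells they were *Cd44*, a hyaluronan receptor gene (1850 ± 266 to 919 ± 17.8 CPM, 2.01-fold, adjusted p = 1.31e-05), *Ccnd1*, which encodes cyclin D1 (2.20-fold, adjusted p = 0.0426), and *Bcl2l11* (1.63-fold, adjusted p = 0.000968). Many other signals act on these targets, and AP-1 or EGR binding was not measured.

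**Figure D4:**
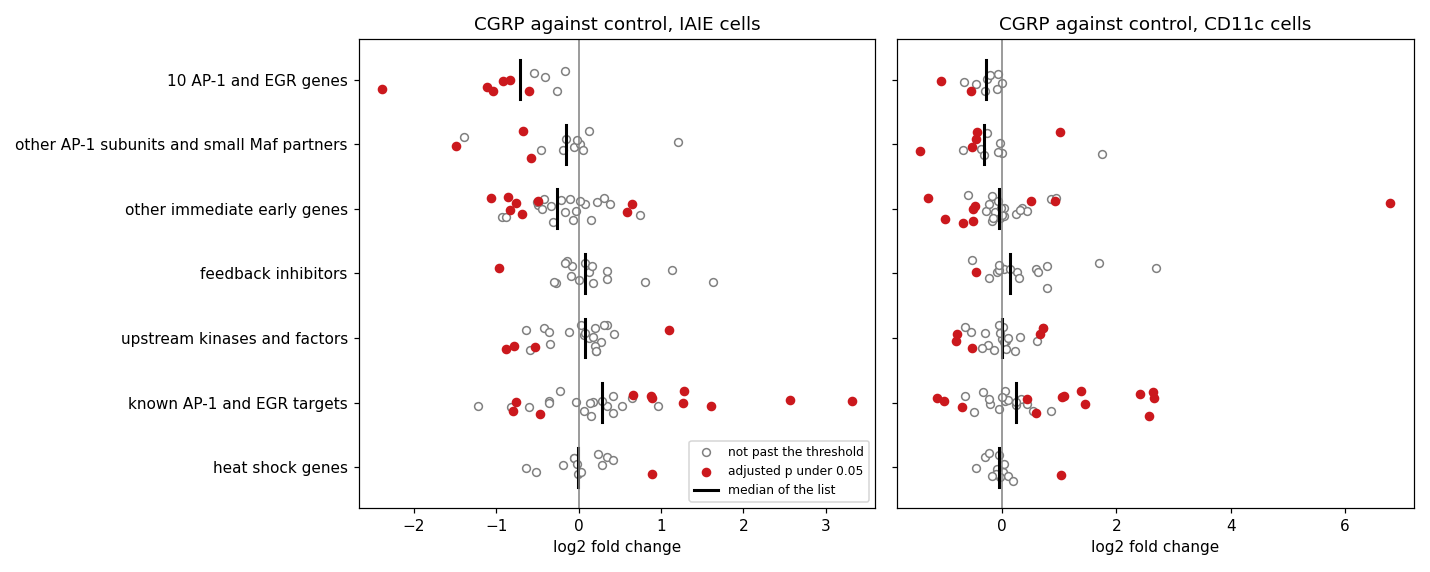
Log2 fold change after CGRP (horizontal axes) of every tested gene of 7 lists in IAIE (left) and CD11c cells (right); each point is a gene, red where the adjusted p was under 0.05, and black bars are list medians. The 10 genes have medians of -0.72 and -0.28, and the targets lie on both sides of 0 with medians of 0.29 and 0.24.

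The genes most alike in pattern were sought by Pearson's r of log2(CPM + 1) over the 12 libraries among 7152 genes that averaged 10 CPM or more. Such an r mixes the subset, the treatment and whatever else the libraries share, and is given as a description. Genes close to the mean profile of the 10 genes were *Ap2a2* (0.971), *Deptor* (0.968), *Gm15542* (0.967) and *Foxred2* (0.957). *Fosb* was most like *Map3k6* (0.972), *Tob2* (0.968) and *Klf2* (0.96), and *Fos* most like *Arap1* (0.969), *Hdac9* (0.957) and *Mknk2* (0.952). *Jun* was most like *F13a1* (0.98), *Slc12a7* (0.978) and *Apoe* (0.976), *Egr1* most like *Rapgef6* (0.958), and *Egr2* most like *Agpat4* (0.975).

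Among the 10 genes themselves the profiles were not uniform over the 12 libraries. The levels of *Egr1* and *Atf3* had an r of 0.922 and those of *Fosb* and *Ier2* 0.869, whereas *Jun* and *Egr2* had an r of -0.638. With the group means removed, *Egr1* and *Jun* kept an r of 0.768 and *Egr1* and *Atf3* 0.724, while *Fosb* and *Egr1* had -0.10. The 12 libraries differ in depth within each group, and the labels do not say which of them share an animal or explant.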

How the data were processed

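Synovial explants from C57BL/6 mice were kept for 4 h with 100 nM CGRP or control, 2 macrophage subsets were sorted, and 12 libraries (3 per group) were grouped by their titles. The study used mice of both sexes, and its libraries came from a stranded total RNA kit. The authors trimmed the reads with Trim Galore, aligned them to mm10 with HISAT2 and deposited raw read counts per gene symbol from featureCounts; versions, annotation and strand setting are not given in the sources used here. A combined table repeats the 12 libraries exactly; 6 further columns match no label and were not used.

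Genes were filtered by group (filterByExpr, minimum count 10, minimum total 15), scaled by TMM and fitted with edgeR's quasi-likelihood test (edgeR 4.0.16, R 4.3.3) as 4 group means and 5 contrasts. Adjusted p-values (Benjamini-Hochberg over 11927 genes, two-sided) are from this fit unless another tool is named, and calls were made at 0.05. Values after ± are SE for log2 fold changes and SD over 3 libraries for levels. Totals of 2127191 to 5649698 counts give floors for counting error only. The biological coefficient of variation was 0.256. The fit was tested on simulated counts. Exon lengths and gene overlaps came from GENCODE vM21 (GRCm38).

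The genes, lists and tests were chosen with earlier results of these data known. Besides the 10 genes, the text names from each list the genes past the threshold with the largest changes (up to 4 per CGRP contrast and 2 per subset contrast, mean of at least 5 CPM) and the sort markers (genes chosen after their values were seen are said to be so, or are cell type markers given beside a result); some genes picked by these rules are not reported here. For *Egr2*, 0.406% of its 31-base words recur in another gene, and for *Egr3* 0.523%. Alternatives were other scalings, filters, tools (DESeq2 1.42.0, limma-voom with limma 3.58.1, sva 3.50.0), replicate blocks, the compared libraries alone and leaving out libraries.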

Additional observations from a re-analysis of the deposited data

How the results depend on the processing

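No gene reversed while called. Of 1065 values of single genes under the other settings listed in the methods, 34 changed their call and 30 changed sign, none of the latter with a call on either side. *Fosb* in both subsets, and *Egr1*, *Egr2* and *Ier2* in IAIE cells, kept their call under all 21 of these settings that apply to a CGRP contrast, and *Egr3* in IAIE cells under the 20 that could test it (the filter of at least 10 counts in every library removes *Egr3*). These tallies leave out the pair of fits chosen after seeing the data, without both libraries highest in fibroblast markers or both IAIE libraries highest in heat shock genes, in which *Egr3* lost its call in IAIE cells (adjusted p = 0.103 and 0.118). In IAIE cells 5 to 8 of the 10 genes passed, the most with DESeq2 and upper-quartile scaling, where 1342 and 1135 of all genes passed. Leaving out 1 library gave 1 to 2 of the 10 genes in CD11c cells, beside 929 to 1377 of all genes. In IAIE cells 722 (without IAIE CGRP replicate 2) to 1122 of all genes then passed. Without both IAIE libraries highest in heat shock genes, 711 of all genes passed in IAIE cells. The cause was not tested.

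The interaction count over all genes, 18, depended on the method. It was 171 with every gene of at least 1 count (1 of the 10, *Egr1*), 5 with at least 10 counts in every library, 97 with DESeq2, 2 with limma-voom and 38 with 1 surrogate variable. It was 6 to 29 when 1 library was left out (6 without CD11c control replicate 3 or IAIE CGRP replicate 2, 7 without CD11c control replicate 2, 29 without CD11c CGRP replicate 2).

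Titles number the replicates. Deviations from the group means correlated at 0.288, 0.0936 and 0.130 between IAIE and CD11c libraries of the same number after CGRP (7161 genes). Between CD11c treatments they correlated at 0.0022 to 0.151. The values were 0.029, 0.043 and 0.00085 between IAIE and CD11c control libraries, and 0.030, -0.0046 and -0.016 between IAIE treatments. Libraries of different numbers were not compared, so this check cannot tell whether the numbers are pairs. The main fit did not take them as pairs. With the replicate number as a block, 36 genes passed the interaction, and with treatment and number as an explant block 52. With either block 5 of the 10 genes, not 3, differed between the subsets after CGRP. Of all genes, 2150 passed there with the replicate block and 2265 with the explant block, against 2012 in the main fit. *Egr1* and *Atf3* were added as lower in CD11c cells (adjusted p = 0.0202 and 0.0139 with the replicate block in edgeR). *Atf3* also passed in IAIE cells under the replicate block (adjusted p = 0.00599). Depth limits *Egr3* most, with 3 to 70 counts a library.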

Other observations

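Other immediate early genes differed between the subsets in both directions. Of 28 tested, 6 were higher and 7 lower in CD11c than in IAIE control libraries, and 7 higher and 6 lower after CGRP. *Nr4a3*, an orphan nuclear receptor gene of the *Nr4a2* family, was at 1897 ± 153 CPM (SD, n = 3) in CD11c control and 208 ± 4.12 CPM in IAIE control libraries, 9.14-fold higher (edgeR adjusted p = 1.62e-10), and 14.7-fold higher in CD11c cells after CGRP (adjusted p = 1.55e-11). *Fosl1*, which encodes the AP-1 subunit FRA-1, was 1.96-fold lower in CD11c than in IAIE cells after CGRP (129.7 ± 23.1 CPM in CD11c control, 129 ± 10.1 after CGRP, and 263 ± 17.8 and 253 ± 33.9 in IAIE cells; adjusted p = 8.79e-05). *Dusp5*, an ERK phosphatase, was 2.11-fold higher in CD11c control libraries (adjusted p = 8.55e-06), while *Dusp6*, another ERK phosphatase, was 3.18-fold lower (adjusted p = 0.000619).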
